A study of Bos taurus with 2 samples.

Results

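The genes described here carry the cyclic AMP and calcium signals that switch on and sustain the beat of the sperm tail, together with the adenylate kinases that shuttle ATP along it. They were chosen by name on a bovine oligonucleotide array: every probe other than controls whose gene name began with CATSPER, ADCY (without ADCYAP), PRKAC, PRKAR, AKAP or GSK3, or was AK or CALM with 1 digit, PDE followed by a digit, or PPP1C followed by A, B or C. The rule found 71 of the 31645 gene names on the array, read by 164 of its 51280 probes. It uses names and no measured value, though it was chosen with earlier results of these data known. The name rule also takes in a few genes that do other work, among them PDE4DIP, which anchors a phosphodiesterase and is not one, and PDE12, which does not act on cyclic nucleotides.

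Sperm RNA of HF crossbred breeding bulls was hybridised to 2 arrays, 1 for bulls of high fertility and 1 for bulls of low fertility, in 1 colour (Cy3). Both groups were Bos taurus males labelled as spermatozoa, with no treatment given, and they differed in the labels only by fertility. The labels speak of bulls without a number, so how many animals lie behind an array, their ages and how fertility was scored are not given in the sources used here. With 1 array per group no difference has a replicate check and no test across bulls can be made. All differences below describe these 2 arrays.

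Cyclic AMP is made by adenylyl cyclases and broken down by phosphodiesterases, and in sperm it acts mainly through protein kinase A, a complex of catalytic and regulatory subunits that A-kinase anchoring proteins hold at the fibrous sheath of the tail. CatSper is the calcium channel of the principal piece, and calmodulin is the calcium sensor that passes its signal on. The kinases GSK3A and GSK3B and the phosphatase PP1, whose gamma subunit PPP1CC has a testis form, are known for restraining motility until sperm mature in the epididymis. Adenylate kinases turn a pair of ADP molecules into ATP and AMP, and AK7 is a known component of motile cilia and flagella.

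Each gene was read by 60-base probes whose place in the cattle genome the scanner tables give on build HGSC Btau_3.1. Whether a place is exonic, intronic or untranslated was not annotated here. The probes that the results turn on are shown so that a reader can see what was hybridised, 5′ to 3′, with the longest unbroken run of G and C in capitals. A probe whose genomic interval is longer than the probe itself by at least 40 bases crosses an intron. The following 4 cross one: that of CATSPER1 (chr29:46002786-46002974, minus strand), the brighter-on-one-array probe of ADCY4 (chr10:21130743-21131104, plus), that of PPP1CA (chr29:47254268-47254406, minus) and that of AK1 (chr11:102121937-102122245, minus).
CATSPER1: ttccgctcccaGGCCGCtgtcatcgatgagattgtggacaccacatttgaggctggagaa
ADCY4: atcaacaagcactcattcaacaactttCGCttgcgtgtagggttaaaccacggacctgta
PPP1CA: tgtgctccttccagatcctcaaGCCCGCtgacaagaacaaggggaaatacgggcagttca
AK1: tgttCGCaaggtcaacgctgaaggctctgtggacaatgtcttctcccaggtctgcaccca

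A second probe of GSK3A (chr18:50790856-50791272, plus) also crosses an intron, while the probes of PPP1CC (chr17:57334788-57334847, minus) and PDE4A (chr7:13443073-13443132, plus) lie in 1 genomic block. Of the pair of AK7 probes with signal (chr21:61490901-61490960 and chr21:61492299-61492358, plus) and of the CALM3 probe with the largest difference (chr18:53540387-53540446, plus) the first 30 bases are given.
GSK3A: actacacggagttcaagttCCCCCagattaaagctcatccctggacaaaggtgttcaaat
PPP1CC: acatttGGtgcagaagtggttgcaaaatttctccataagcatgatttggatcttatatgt
PDE4A: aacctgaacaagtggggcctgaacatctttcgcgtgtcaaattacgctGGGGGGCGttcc
AK7, upstream: tcagatgacgaaaatactggagcttCCGGt
AK7, downstream: tacactGGCttttcagtttgttagtggctg
CALM3: gtaaGGGCaggtaggcgtgaagctgtggac

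Most of these genes gave no signal above background. A probe was taken as measured on an array when at least 50% of its spots were well above background in the scanner software's own call. By that mark 27 of the 71 genes (38%) were measured on both arrays, close to the 38.6% of all gene names. A further 3 genes were measured on the high-fertile array only, 3 on the low-fertile array only, and 38 on neither. Counted by probes, 37 of 164 (22.6%) were measured on both arrays against 28.9% of all probes, 8 on the high-fertile array only, 4 on the low-fertile array only and 115 on neither. In the scanner's processed signal units, the lowest probe with every spot well above background read 22.6 (high-fertile array) and 30.3 (low-fertile array).

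**Figure D1:**
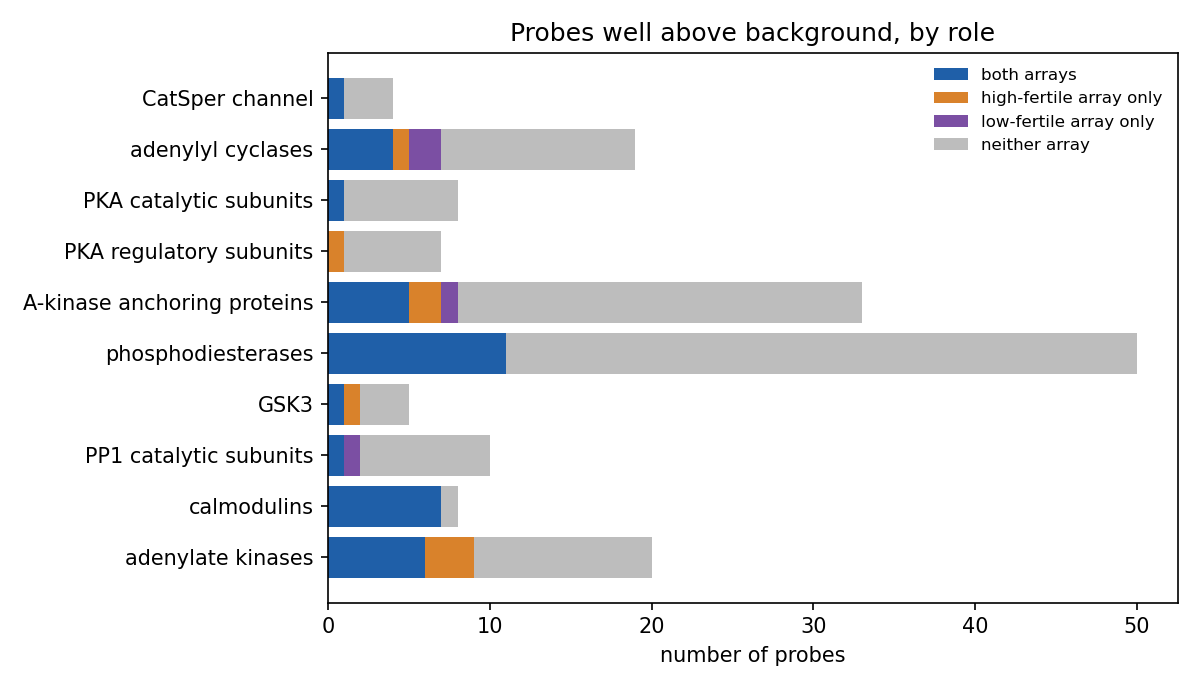
Number of probes of each role (horizontal axis) that were well above background on both arrays, on 1 array or on neither. Phosphodiesterases had 11 of 50 probes measured on both arrays, A-kinase anchoring proteins 5 of 33, and PKA regulatory subunits 0 of 7.

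Some genes known from the sperm tail, named here whatever their values, were measured on neither array. AKAP3 and AKAP4, the anchoring proteins that build the fibrous sheath, reached at most 5.19 and 4.97 on the high-fertile array, against 7.30 and 6.86 on the low-fertile one. The channel subunits CATSPER2, CATSPER3 and CATSPER4 reached 4.83, 12.8 and 5.18 on the high-fertile array and 6.47, 21.5 and 7.55 on the low-fertile array. No probe is named ADCY10, the soluble cyclase of sperm, and none is named CATSPERB, CATSPERD, CATSPERG, PRKACG, AKAP14 or CALM2 under the rule, so these were not analysed here. A probe that is not well above background has only an upper limit, and such a reading does not show that the transcript was absent.

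The label of the samples was set against marker genes. Of 20 spermatozoa markers 9 were measured on both arrays, among them the protamine PRM1, the transition proteins TNP1 and TNP2, the tail protein ODF1 and the acrosomal protease ACR. The sperm markers PRM2, IZUMO1, SPAM1, LDHC, PGK2, SMCP, HSPA2 and AKAP4 were measured on neither. Of 16 leukocyte markers 11 were measured on both arrays, of 10 epithelial markers 5, of 11 testis and connective tissue markers 11, of 9 epididymis and gland markers 3, and of 7 spermatogonia and meiosis markers 0. The summed scaled signal of the measured markers was 6.43 on the high-fertile array, against 6.18 on the low-fertile one, for spermatozoa, 62.4 and 68.2 for leukocytes, 4.47 and 4.05 for epithelium, 11.9 and 11.6 for testis and connective tissue, and 0.779 and 1.01 for epididymis and glands. Within the spermatozoa list PRM1 differed by -1.10 (SD 0.28 over 2 probes) and TNP2 by 1.22 (1 of 2 probes), while the sums were close. Most of the leukocyte sum came from a few bright probes: the brightest probe of PTPRC gave 4530 and 10086, that of CD3D 4647 and 7439, and that of LYZ 9108 and 13934, whereas CD3E and CD8A were measured on neither array and PTPRC on 2 of its 4 probes. The part of other cells or of probe binding in the levels of the signalling genes was not tested. In such a bulk sample, fewer cells of a type and less RNA per cell cannot be told apart.

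Among the 27 genes measured on both arrays, differences were small. Each gene's difference is the mean over its measured probes of the scaled log2 signal, high-fertile minus low-fertile. Only 1 probe was measured in 20 of the 27 genes, and every probe in 7. Scaling subtracted from each array the 75th percentile of probes measured on both, which was 141.6 on the high-fertile array, against 176.8 on the low-fertile one. Equal scaled levels therefore correspond to a raw signal about 0.32 log2 units lower on the high-fertile array. The median difference of the 27 genes was 0.04, beside -0.01 over all 12203 measured genes, and 14 lay above 0 and 13 below. Within 0.5 of 0 lay 21 of the 27, against 78.0% of all genes. At least 2-fold higher was 1 gene, AK7 (all genes: 1.92%), and at least 2-fold lower were 0 (all genes: 2.51%). A single gene of 27 does not set the group apart from that background.

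The error of a single difference can be judged in 3 ways. Across the array, the differences of 2 spots of one probe had an SD of 0.36 (3713 probes), and the differences of probes of one gene an SD of 0.42 (1925 genes). The 7 signalling genes with at least 2 measured probes had an SD between their probes of 0.54. The scanner software's own error model gave the 37 probe differences an error of 0.21 to 0.41, with a median of 0.26. By that model 8 of the 37 probes differed by more than 2 errors, 5 higher and 3 lower on the high-fertile array. The share over all measured probes was not computed, so this count does not set these genes apart. None of these error measures covers the spread between bulls.

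**Figure D2:**
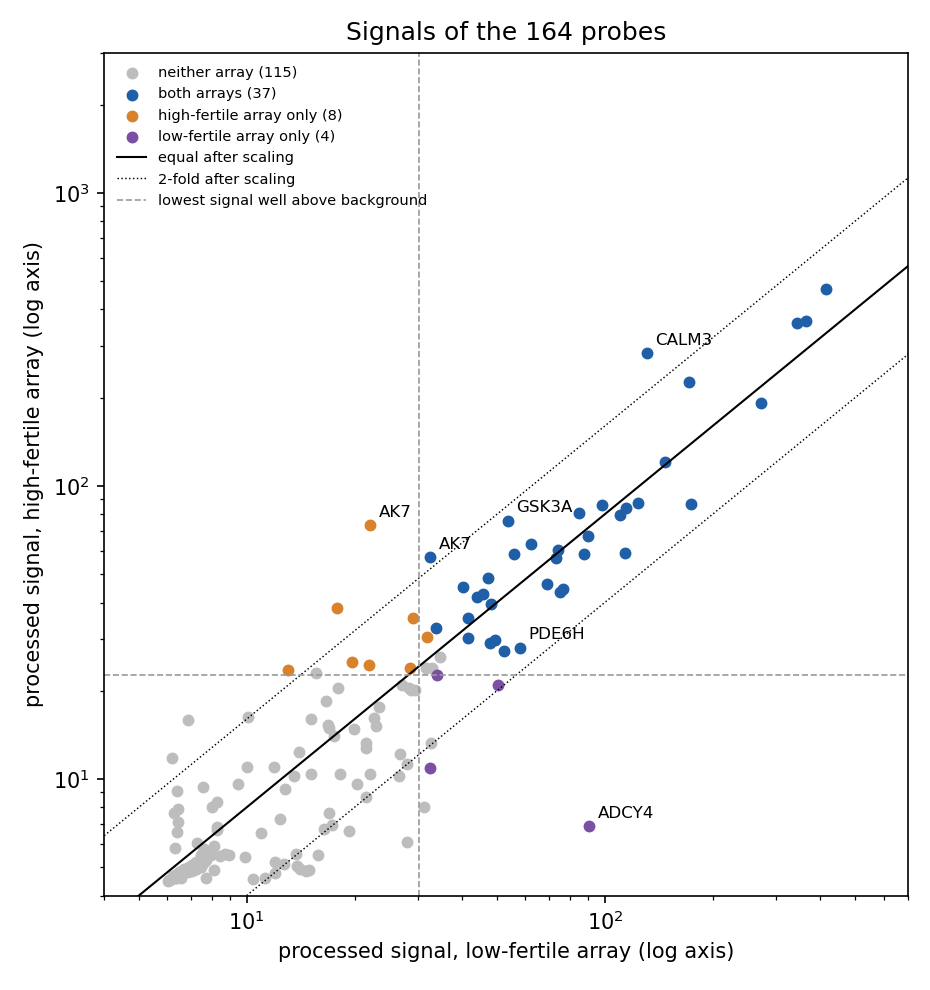
Processed signal of each of the 164 probes on the high-fertile array (vertical, log axis) against the low-fertile array (horizontal, log axis), coloured by the array on which it was well above background. The solid line marks equal scaled levels, dotted lines 2-fold, and dashed lines the lowest well-above-background signals of 22.6 and 30.3. Most points lie in the lower left corner below these limits, and both labelled AK7 probes lie above the upper dotted line.

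Of the 4 CatSper genes in the set, only CATSPER1, a pore subunit of the channel, was measured on both arrays. Its single probe read 39.5 ± 6.21 on the high-fertile array, against 48.0 ± 8.17 on the low-fertile one (± the scanner software's error), a scaled difference of 0.04 with an error of 0.33. Both signals were less than 2 times the lowest well-above-background signal of their array.

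Calmodulin, the calcium sensor, is described by CALM3. CALM3 had 3 of its 4 probes measured, which read 60.6, 63.4 and 284 on the high-fertile array, against 73.8, 62.3 and 131 on the low-fertile one, from upstream to downstream. The remaining probe, between the last 2 of these, read 5.54 and 13.8 and was measured on neither array. The differences of the 3 measured probes were 0.03, 0.35 and 1.44 (error of the last 0.22). The gene's mean was 0.60 (SD 0.74 over 3 probes), or 0.02 with spike-in scaling and 0.21 with no filter. Only the most downstream probe, shown above, was at least 2-fold higher. It is 1 of the 2 probes of the whole set past 2-fold upward (all measured probes: 2.16%), with 0 past it downward (2.86%). It belongs to the brightest quartile of measured probes, of which 4.31% were at least 2-fold higher.

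Of 9 adenylyl cyclases, the enzymes that make cyclic AMP, 3 were measured on both arrays. ADCY6 had 2 measured probes, which read 359 and 87.6 on the high-fertile array, against 345 and 124 on the low-fertile one. Their differences were 0.38 and -0.18, so the probes went opposite ways, and the mean was 0.10 (SD 0.39 over 2 probes). ADCY5 read 45.2 and 40.2, a difference of 0.49 (error 0.36, 1 probe), or -0.10 with spike-in scaling and 0.05 with no filter. ADCY4 read 67.7 and 89.9 at one probe, a difference of -0.09 (error 0.26). The other ADCY4 probe, shown above, read 90.5 on the low-fertile array and 6.89 on the high-fertile array, at least 3.21-fold lower, with 7 of the 8 spots around it also at least 2-fold lower. It thus lies within a patch of such spots on the slide. ADCY2 was measured on the high-fertile array only (30.6 against 31.9, at least 1.20-fold higher after scaling) and ADCY8 on the low-fertile array only (50.4 against 20.9, at least 1.79-fold lower on the high-fertile array). ADCY1, ADCY3, ADCY7 and ADCY9 were measured on neither.

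Of the genes of protein kinase A, only the catalytic subunit PRKACA was measured on both arrays. It read 192 ± 19.7 on the high-fertile array, against 273 ± 28.0 on the low-fertile one, a difference of -0.19 with an error of 0.21, from 1 of its 3 probes. That probe shares 16 bases with a probe of NF1. The second catalytic gene, PRKACB, was measured at none of its 5 probes. Of the 4 regulatory subunits, which hold the kinase inactive until cyclic AMP binds, PRKAR1B was measured on the high-fertile array only (35.6 against 29.0, at least 1.46-fold higher). PRKAR1A, PRKAR2A and PRKAR2B were measured on neither, and PRKAR2A reached 10.4 on the high-fertile array, against 22.1 on the low-fertile one. For genes measured on 1 array the bright signal was set against the dim array's lowest well-above-background signal, or the dim probe's own if higher. At least 2-fold above that bound were 0 of the 3 such genes on the high-fertile array (all such genes: 6.23%) and 0 of the 3 on the low-fertile array (15.6%). Counted by probes, 1 of the 8 on the high-fertile array passed it, a probe of AK7 (all such probes: 5.86%), and 1 of the 4 on the low-fertile array, the ADCY4 probe in a patch (15.4%).

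A-kinase anchoring proteins were measured sparsely, 4 of 14 genes on both arrays with a median difference of -0.20. AKAP6, known from muscle and brain, read 27.4 against 52.2 on the low-fertile array, a difference of -0.61 (error 0.40, 1 of 3 probes). The scaffold AKAP12 read 44.5 against 76.4, a difference of -0.46 (error 0.29, 1 of 2 probes). AKAP10, a mitochondrial anchor, differed by 0.06 (SD 0.27 over 2 of 3 probes) and AKAP13, another anchor, by 0.10 (error 0.36, 1 of 6 probes). With normexp AKAP6 stood at -0.13 and AKAP12 at -0.22, and with no filter on dim probes AKAP6 stood at -0.10. With spike-in scaling both were past 2-fold (-1.20 and -1.05), as were 1913 of all 12203 genes on the lower side. AKAP7 on the high-fertile array only (23.6) and AKAP8L on the low-fertile array only (33.9) were both close to the limits, so that AKAP7 has no fold. AKAP8L was 1.20-fold lower against the dim probe's own reading of 22.7, a difference of -0.26 (error 0.47) and not a lower bound. AKAP1, AKAP2, AKAP3, AKAP4, AKAP5, AKAP8, AKAP9 and AKAP11 were measured on neither.

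Phosphodiesterases, which break down cyclic nucleotides, were the largest role, with 24 genes and 9 measured on both arrays. Below 0 lay 7 of the 9 (all genes: 51%) and above 0 lay 2 (all genes: 49%), with a median of -0.16. With other scalings 6 to 9 of the 9 lay below 0, and the median ran from -0.04 with the matrix values to -0.74 with spike-in scaling. The median of all genes moved too, to 0.10 with the matrix values and -0.60 with spike-in scaling. The shares of all genes below 0 with other scalings were not computed. None was 2-fold apart, except PDE6D (-1.22) and PDE6H (-1.32) with spike-in scaling, where 1913 of all 12203 genes were at least 2-fold lower. With normexp these 2 stood at -0.19 and -0.20. The largest differences were in subunits of the photoreceptor enzyme. PDE6H, its inhibitory subunit in cones, read 28.1 against 58.1, a difference of -0.73 (error 0.25), and its 2 spots gave -0.65 and -0.80. PDE6D, which also carries lipid-anchored proteins, read 59.0 against 114, a difference of -0.63 (error 0.26). PDE6G, the inhibitory subunit in rods, differed by -0.04 (56.9 against 73.2).

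Enzymes specific for cyclic AMP had differences of both signs. PDE8A read 29.2 against 47.9, a difference of -0.40 (error 0.41, 1 of 3 probes), at a probe that shares 16 bases with a probe of SFTPB. With normexp background correction it stood at 0.07. PDE4B read 46.3 against 69.0 at 1 of 3 probes, a difference of -0.25 (2 spots of -0.35 and -0.16). PDE4A had 2 measured probes of opposite sign: the upstream one, shown above, read 43.6 against 74.9 (-0.46), and the downstream one 227 against 172 (0.72). The mean of PDE4A was 0.13 (SD 0.83 over 2 probes), the largest SD between probes in the set. Of the others, PDE3A differed by 0.28, PDE1B by -0.14 (SD 0.39 over 2 probes) and the cyclic GMP enzyme PDE9A by -0.16. PDE1A, PDE10A and PDE11A, which are reported from testis or sperm, were measured on neither array, nor were the other 12.

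GSK3A was the second highest gene. The probe measured on both arrays read 76.2 ± 9.10 on the high-fertile array, against 53.6 ± 8.68 on the low-fertile one, a difference of 0.83 with an error of 0.29. The second GSK3A probe, upstream and intron-crossing, was measured on the high-fertile array only, at 23.9 against 28.5, and gives no fold. GSK3A stood at 0.24 with spike-in scaling and at 0.44 with normexp. Its paralog GSK3B was measured at none of its 3 probes, with top signals of 7.28 and 12.4.

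Of the PP1 catalytic subunits, PPP1CA read 48.5 against 47.1, a difference of 0.36 (error 0.32), from 1 of 3 probes. PPP1CC, the subunit with a testis form, was measured on the low-fertile array only and at 1 of its 4 probes, at 32.4 ± 7.09 against 10.9 ± 4.86. That is at least 1.15-fold lower on the high-fertile array, since 32.4 lies just above the limit of 30.3. PPP1CB was measured on neither.

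Of the adenylate kinases 5 of 7 genes were measured on both arrays (all genes: 38.6%), or 6 of 20 probes (all probes: 28.9%). Above 0 lay 3 genes and below 0 lay 2, or 4 with spike-in scaling, where the median of all genes was -0.60. AK7 read 57.0 ± 7.39 on the high-fertile array, against 32.5 ± 7.19 on the low-fertile one, a difference of 1.13 (error 0.37), or 2.19-fold. Its level on the low-fertile array was close to the limit of 30.3, and its probe lay in the dimmest quartile of measured probes. Of that quartile 0.324% were at least 2-fold higher, but its probes are dim and had to pass the limit on both arrays. This leaves little room for a 2-fold difference, so the share does not show how rare the difference of AK7 is. The second AK7 probe, downstream of the first on the genome, read 73.5 ± 8.77 on the high-fertile array. It was not measured on the low-fertile array (22.2 ± 6.94), which is at least 3.02-fold higher. The other 2 probes of AK7, which start at 61541885 and 61542667 on chromosome 21, read 5.12 and 6.86 on the high-fertile array, against 7.23 and 8.26 on the low-fertile one, and were measured on neither. Both upstream probes of AK7 were thus higher on the high-fertile array and both downstream probes without signal. The 2 without signal were designed on the RefSeq transcript of AK7, and the 2 with signal on other transcript records. Whether all 4 read the same transcript was not tested. The difference of AK7 fell under 2-fold with normexp background correction (0.52), with spike-in scaling (0.54) and with all 4 probes averaged (0.76).

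Other adenylate kinases differed by less. AK1, the cytosolic form, read 41.7 against 44.1, a difference of 0.24 (error 0.34). AK3, of the mitochondrial matrix, differed by -0.25 (58.8 against 87.3, 1 of 3 probes). AK4 differed by -0.05 (SD 0.11 over 2 probes, 84.3 and 121 against 115 and 147), and its remaining probe was measured on the high-fertile array only, at 38.4 against 17.8, at least 1.58-fold higher. AK5 and AK8, the latter also an axonemal form, were measured on neither.

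**Figure D3:**
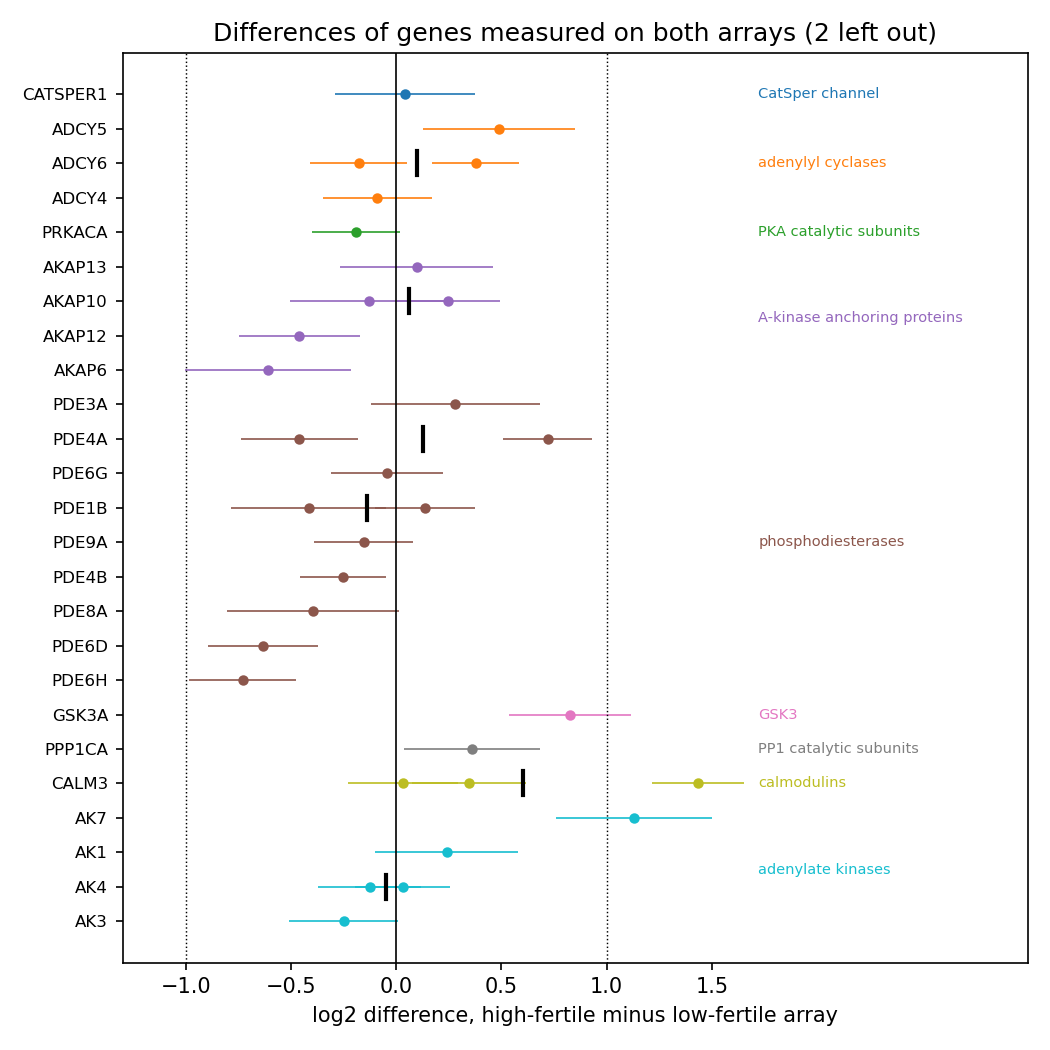
Scaled log2 difference, high-fertile minus low-fertile, of the genes measured on both arrays, by role, with 2 genes left out. Points are probes, bars the scanner software's error, black ticks the mean of genes with more than 1 measured probe, and dotted lines mark 2-fold. AK7 at 1.13 is the only gene past a dotted line, and 1 probe of CALM3 lies at 1.44.

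Probes of one gene did not always give one direction. Of the 7 genes with at least 2 measured probes, 6 had probes on both sides of 0, with CALM3 the exception. The share of such genes over the whole array was not computed. For AK4 both differences, -0.13 and 0.03, were smaller than their errors of 0.24 and 0.23. At least 2-fold apart on the mean of their probes were 0 of the 7 (all such genes: 2.65%). After these values were seen, the brightest measured probe of each gene was set against its dimmest. The brightest probe had the higher difference in 7 of 7 genes, by a median of 0.55, against 58.6% of 1925 genes on the whole array, by a median of 0.10. With the trend of differences on signal removed by loess, this held in 6 of the 7 genes and in 51.5% of all. Ordered along the transcript, the most downstream probe had the higher difference in 6 of the 7 genes, ADCY6 being the exception, and in 57.5% of 1439 genes of the array. The brightest probe was also the most downstream one in 5 of the 7, so brightness and position cannot be told apart there.

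**Figure D4:**
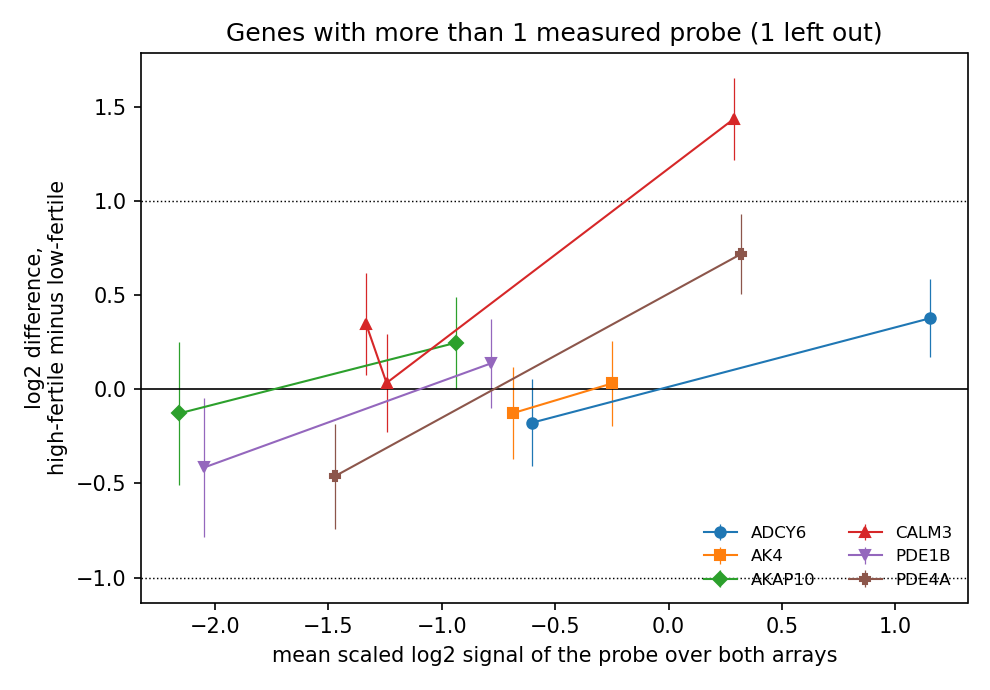
Scaled log2 difference (vertical) against mean scaled log2 signal over both arrays (horizontal) of each measured probe of the genes with more than 1, joined by gene and with 1 gene left out, with the scanner software's error. In each gene shown the probe farthest right lies above the one farthest left.

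Which probes gave signal went with their sequence composition, in these genes as on the whole array. Among probes with 35% or less G and C, 2 of 30 (6.67%) were measured on both arrays, and among those with over 50%, 11 of 24 (45.8%). Over all probes the shares were 11.3% and 53.7%. Intron-crossing probes were measured in 6 of 36 cases (16.7%) and the others in 31 of 128 (24.2%), against 18.2% and 30.4% over all probes. In 8 pairs of probes of one gene that overlap by 18 to 54 bases, AKAP3, AKAP11, AKAP13, PRKAR1A, PPP1CA, ADCY2, PDE4C and AK8, neither probe was measured. Both probes of these pairs thus lacked signal, though PPP1CA and AKAP13 were measured on both arrays at another probe. The share of such pairs over the whole array was not computed, and 115 of the 164 probes were measured on neither array.

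Other genes that act around this pathway were followed through a list of 74, of which 68 are named on the array. On both arrays 27 of them were measured (39.7%), 3 on only the high-fertile array and 3 on only the other. None was at least 2-fold higher (all genes: 1.92%) or lower (2.51%), and their median difference was 0.09. CAMKK2, the kinase that switches on calmodulin-dependent kinases, read 190 against 135, a difference of 0.81 from 1 of its 3 probes. CAMK2G, a calmodulin-dependent kinase, differed by 0.53 (SD 0.07 over 2 probes). Lowest were the 14-3-3 proteins, which bind phosphorylated partners: YWHAZ read 45.2 against 90.7, a difference of -0.68 from 1 of 2 probes, and YWHAE differed by -0.46 (SD 0.21 over 3 of 4 probes). CAMK2B was measured on the high-fertile array only, at 93.5 against 27.8, at least 3.85-fold higher. Of all genes on that array only, 6.23% were at least 2-fold above the bound. The related CAMK2A was measured on the low-fertile array only, at 49.8 against 24.2. By these readings it was 1.65-fold lower on the high-fertile array after scaling, which is not a lower bound. CAMK2D differed by -0.01 (SD 0.79 over 3 of 4 probes), and CAMK4 and CAMKK1 were measured on neither array. The sperm tail proteins ROPN1, ROPN1L and SPA17, which share the PKA docking fold, were measured on neither array. Nor were CABYR, FSCB, TSSK6 and LDHC. Other sperm genes of the list were measured on both arrays: TSSK3 read 72.2 against 83.4 and TCP11 485 against 475. TSSK1B, TSSK4, ATP1A4, C2CD6 and GAPDHS were also measured on both.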

How the data were processed

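Per the file headers, the authors scanned each array with Agilent Feature Extraction 11.5.1.1, and the deposited tables hold each spot's intensity on a linear scale. The processed signal was background-subtracted and detrended within the array, and the software's error of it is an intensity too. The deposited series matrix holds log2 values that equal the log2 processed signal shifted by -5.12 (high-fertile) and -5.55 (low-fertile), to within 0.01 in 98.6% of probes. Its column medians were -1.43 and -1.37, so its scale and direction are those of expression and its genes were not centred. Normalization between arrays is not given in the sources used here. Per the labels' protocols, RNA was primed with oligo-dT.

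From 61657 spots other than controls (33.2% well above background on the high-fertile, 32.9% on the low-fertile array, 0 saturated), spots flagged as outliers were dropped (which removed 2 probes), log2 signals averaged per probe and scaled on the 75th percentile of probes measured on both arrays, since these were under 50% of all. The software errors were carried through to each probe's difference. The limit for a dim probe came from probes with every spot above background, and the rule of at least 50% of spots from the design. Each sample's group came from its fertility label, and the number of arrays limits the precision. Probes were named through RefSeq names of ARS-UCD2.0 (29887 by accession, 5520 by symbol, 149 by older symbol, 15726 as in the file). This gave 5 probes a member's symbol that the name rule had not taken in, and 0 of these were above background. A patch is a run of spots where at least 4 of 8 neighbours differ at least 2-fold one way.

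The members and lists were chosen with earlier results of these data known. Named by rule were members at least 2-fold apart or past that bound, the 5 highest and 5 lowest differences, genes with 3 or more measured probes, the 5 brightest and 35 fixed names, of which 28 are on the array. From the other list, the rule named the genes with the largest difference each way. Other members are named to account for them, and values of 2 member genes are not reported here, though counts over the whole set include them. CAMK2A, CAMK2B, CAMK2D, CAMK4, CAMKK1, the other list's sperm genes, the lists' single markers and the shown probes were chosen after values were seen. So were the comparisons of probes within a gene, of base composition and of introns. Alternatives covered scaling, normalization, background correction, filters, probes per gene, patches, base composition, names and the fold. Python 3.11.15 and limma 3.58.1 in R 4.3.3 were used. Tested on simulated data of 13651 genes, the scripts recovered 200 of 200 genes changed 4-fold. The changed genes were drawn from bright ones, the noise was below the spot SD of 0.36 and both arrays had the same detection calls. The simulation thus checks the calculation and does not show how well dim genes are measured.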

Additional observations from a re-analysis of the deposited data

How the results depend on the processing

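The count of signalling genes at least 2-fold apart, 1 (AK7), was 0 with normexp and 0 at a fold of 4. It was 4 of 27 with spike-in scaling (AKAP6, AKAP12, PDE6D and PDE6H, all lower), where 1913 of all 12203 genes were lower. It was 3 of 71 with no filter on dim probes (ADCY4, AKAP2 and PDE11A, all lower), where 1760 of all 31645 were lower. Neither of these counts sets the signalling genes apart from all genes. With the brightest probe per gene the count was 2 of 27 (AK7 and CALM3, both higher), where 267 of all 12203 were higher. With the stricter filter it was again 1, but the gene was CALM3, and 7 genes were measured in place of 27. AK7 was the gene counted under the other alternatives. The median of the signalling genes was -0.55 with spike-in scaling, where the median of all genes was -0.60, and -0.14 with no filter, where it was -0.13. Of genes on 1 array, 1 (ADCY8) passed the bound with spike-in scaling in place of 0. Of the other list, 2 passed with spike-in scaling (YWHAE and YWHAZ), 6 with no filter and 1 with the brightest probe, in place of 0. Over all genes, 234 were higher and 306 lower, which became 305 and 212 with the series matrix, 319 and 217 when all probes set the 75th percentile, 291 and 247 with the median of measured probes, 37 and 1913 with spike-in scaling from 7 probes, 75 and 48 with normexp, 753 and 1760 with no filter and 122 and 47 with the stricter filter. Of 259 values of 18 named genes under alternatives, 242 kept their sign and 223 stayed within the spot SD of 0.36, and 18 of the 36 that moved did so with spike-in scaling. The cause of these shifts was not tested. Counting a probe only where every spot was above background, a choice made after seeing the data, left AK7 the gene counted and the median at 0.05. Signals near 22.6 and 30.3 limit what can be said of most of these genes. No paired analysis was possible because each group had 1 array and no replicate numbers. With no filter no gene is on 1 array only, so the counts of measured genes have no value there.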
